A study of Homo sapiens with 7 samples.

Results

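Genes that encode readers of m6A, the methylated adenosine found inside many messenger RNAs, were examined here as RNAs that may carry the mark themselves. They were 5, the 3 IGF2BP genes (IGF2BP1, IGF2BP2 and IGF2BP3) and the 2 hnRNP genes HNRNPA2B1 and HNRNPC, chosen by gene symbol. All 5 were found, with 1 transcript each, among 25918 transcripts in the authors' table. The study mapped m6A in cells labelled HepG2, a line from a human liver carcinoma, kept untreated, with 4 libraries after immunoprecipitation with an anti-m6A antibody (m6A-IP) and 3 input libraries. It asked where in the transcriptome the mark lies. The 7 libraries were merged by the authors into 1 table, which lists for each transcript an expression quantile and, for each m6A peak, a position, an exon, a segment and a score. No value belonged to a single library, so none has a replicate error, no p-value can be given, and depth per library is unknown.

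The label of the cells was checked against 10 hepatocyte markers. Of these, 5 (ALB, AFP, TTR, APOB and SERPINA1) were listed at the lowest quantile in the table, 0.314, which 8139 transcripts shared. The highest marker was FGB, a fibrinogen chain, at 0.619, and none of the 10 had a peak. The markers therefore went against the liver label, and the cells are called by their label only. The expression of IGF2BP1 and IGF2BP3 described here belongs to these cells, and its relation to the marker levels was not tested.

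Readers are proteins that bind RNA at or near m6A and so pass the mark on to the fate of the RNA. IGF2BP proteins are cytoplasmic, bind through K homology domains and are known for stabilising bound mRNAs; in most adult tissues IGF2BP1 and IGF2BP3 are low, and both return in many tumours, liver cancer among them. HNRNPA2B1 and HNRNPC are abundant nuclear proteins of pre-mRNA. HNRNPA2B1 is known for roles in splicing and in microRNA processing. HNRNPC binds runs of uridine, which m6A can expose by loosening RNA structure (the m6A switch). The writers of m6A favour the sequence RRACH, in which the A just before the C is methylated. Each R is a purine (A or G) and the H is any base but G, so GGACU is a member and GGACG is not.

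The sequences at the 4 listed peaks are shown because they differ in whether such a site is there. Each is 30 nt long, read 5′ to 3′ on the RNA strand from GENCODE release 29 transcripts with T for U. Capitals mark RRACH, except in HNRNPA2B1, where none lies in the window and the single capital marks the listed peak position.
IGF2BP1, nt 132 to 161: ctctccccGAACTctcccgcgacctctgcg
IGF2BP2, nt 3522 to 3551: ggatGAACAtgtactggtttatgtGGACAa
IGF2BP3, nt 355 to 384: cgGGACCcttcctggtgaAGACTggctacg
HNRNPA2B1, nt 99 to 128: ctcgagcagcggcaGttctcactacagcgc
The windows of IGF2BP2 and IGF2BP3 hold 2 RRACH sites each and that of IGF2BP1 holds 1. Positions count from the start of the transcript as the table spans it.

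Of the 5 readers, 4 had a listed peak, each exactly 1, and HNRNPC had none. Across the table, 27.9% of all transcripts had at least 1 peak, as did 45.8% of the 15273 coding transcripts above the lowest quantile. Weakly expressed transcripts seldom had a peak, so each reader was also set beside coding transcripts within 0.02 of its own expression quantile. Summed over the readers, those shares give 3.31 of 5 transcripts with a peak, and 3.82 when length was matched as well. The count of 4 was thus near its background and is no result about readers. Among transcripts with a peak anywhere in the table, 55.9% had exactly 1.

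**Figure D1:**
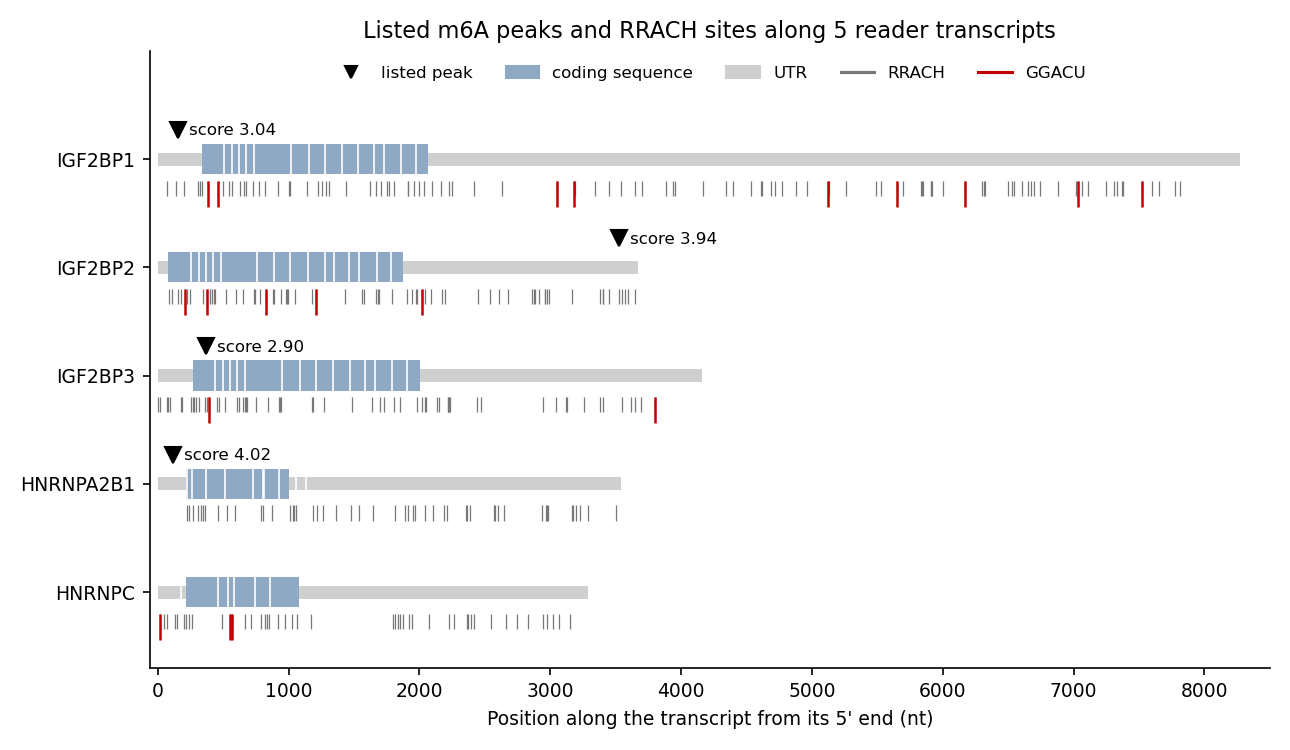
Each row is 1 reader transcript drawn to scale along its length in nt from the 5′ end, with coding sequence in blue, UTRs in grey and exon borders of the coding part and UTRs in white. Triangles mark the listed peaks with the authors' score, grey ticks mark RRACH and long red ticks mark GGACU. Peaks of IGF2BP1 and HNRNPA2B1 lie at the 5′ end, that of IGF2BP3 early in the coding sequence and that of IGF2BP2 close to the 3′ end of the GENCODE transcript drawn. HNRNPC has no triangle. IGF2BP1 is drawn at its GENCODE length.

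The hnRNP genes were listed at higher expression than the IGF2BP genes. The quantile is the share of transcripts expressed at or below a given one. HNRNPA2B1 stood at 0.995, with only 128 transcripts higher, and HNRNPC stood at 0.924, with 1962 higher. The IGF2BP genes lay close together below them. IGF2BP1 had 0.795, IGF2BP2 had 0.783 and IGF2BP3 had 0.780, with 5306, 5624 and 5691 transcripts higher in that order. All 3 family members, the 2 usually low in adult tissues included, were thus in the upper part of the table. The spread of the quantile between libraries is unknown, so whether neighbouring IGF2BP genes differ in expression was not tested.

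IGF2BP1, known for binding the mRNAs of beta-actin and MYC, lies on chromosome 17 at 44429773 to 44488506 on the plus strand, in the coordinates of the table, whose build the sources used here do not give. Its peak was listed at nt 154, in exon 1 (509 nt), in the segment called transcript start, which covers positions under 200 nt from the transcript start. In the GENCODE transcript of 15 exons and 8274 nt, this is in the 5′ UTR, 181 nt before the start codon. The nearest RRACH, GAACU, lay 12 nt upstream and a GGACA lay 43 nt downstream. The score was 3.04 on the authors' scale, which has no stated unit.

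The long 3′ UTR of IGF2BP1, 6206 of 8274 nt in GENCODE, had no listed peak. It holds 69 of the transcript's 106 RRACH sites, against 32 in the 1731 nt of coding sequence, and 7 of its 9 GGACU sites. In the table this UTR runs a further 495 nt, to where RefSeq ends the gene. In every length match here, other genes had the length of their longest protein-coding GENCODE transcript, which can differ from the listed one. Coding transcripts of like expression (within 0.05) and like length (within 1.2 times) numbered 219. Of these, 177 had a peak, 80.8% (95% Wilson interval 75.1% to 85.5%), and 126 had one around the stop codon or in the 3′ UTR, 57.5%. A transcript start peak was listed for 24, 11.0%. Of those with a peak, 29.9% had exactly 1 and the median was 2. IGF2BP1 thus had fewer peaks than the median of like transcripts with a peak, and at a less usual place. Intervals given here and elsewhere cover counting error only.

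IGF2BP2, a reader expressed also in many adult tissues and linked by inherited variation to type 2 diabetes, lies on chromosome 3 at 186844221 to 187025521 on the minus strand. Its peak, at nt 3528, was the only one of the 4 in a 3′ UTR. It lay in exon 16, the last (1885 nt), 1649 nt after the stop codon and 143 nt from the end of the GENCODE transcript, whose last exon has the length the table lists. RefSeq ends the gene 609 nt further on. Measured to that end, the peak lay 752 nt away and 68.7% of the way along the 3′ UTR, against 92.0% in GENCODE. Its score was 3.94. An RRACH, GAACA, fell on the listed position itself, with GGACA 20 nt and AGACU 40 nt downstream. These distances rest on an assumption. The GENCODE transcript spans 17 nt more than the table's, and the difference was taken to lie at the 5′ end, which no peak in exon 1 checks. Without that shift the nearest RRACH lay 17 nt away with 2 within 50 nt, and the transcript end 160 nt away.

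Among 235 peaks in the 3′ UTRs of transcripts matched exactly to GENCODE, the median distance to the transcript end was 915 nt and 16, or 6.81%, were as near to it as that of IGF2BP2. Their median distance after the stop codon was 539 nt, and 11.9% were at least as far from it. The 6.81% holds for GENCODE ends only, since the 752 nt to the RefSeq end of IGF2BP2 is closer to the median of 915 nt. Of 525 coding transcripts of like expression and length, 382 had a peak (72.8%) and 120 had one in the 3′ UTR (22.9%). A gene on the opposite strand, C3orf65, lies within the span of IGF2BP2 and had no listed peak, at a quantile of 0.423.

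IGF2BP3, an oncofetal member of the family first known for its expression in cancers, lies on chromosome 7 at 23316353 to 23476520 on the minus strand. Its peak, at nt 367, was the only coding one, with the lowest score of the 4, 2.90. It lay at base 101 of the coding sequence, in exon 1 (441 nt), 74 nt from the end of that exon. The sites around it were dense. GGACC lay 8 nt upstream, AGACU 8 nt downstream and GGACU 27 nt downstream. Of 540 coding peaks in matched transcripts, 220, or 40.7%, had as many as 3 RRACH sites within 50 nt, and the median was 2.

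Most coding peaks lay in later exons. Of all 4547 coding peaks in the table, 568 were in exon 1, 12.5%. An exon of 441 nt or shorter held 11.3% of those 568 and 10.7% of all coding peaks, so short exons held a like share in both. Of 548 coding transcripts of like expression and length, 399 had a peak (72.8%) and 164 had a coding one (29.9%). The 3′ UTR of IGF2BP3, 2153 nt long, had no listed peak with 24 RRACH sites and 1 GGACU.

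The GGACU site beside the IGF2BP3 peak has a counterpart in both other family members. All 3 genes carry it in the coding part of exon 1, 47 nt before the end of that exon, and exons 2 to 5 have the same lengths in all 3 genes (61, 49, 52 and 64 nt). The 30-nt windows are shown because only that of IGF2BP3 lay near a listed peak, with GGACU in capitals (T for U).
IGF2BP1, nt 448 to 477: ctacgccttcgtGGACTgcccggacgagca
IGF2BP2, nt 196 to 225: ctacgccttcgtGGACTaccccgaccagaa
IGF2BP3, nt 380 to 409: ctacgcgttcgtGGACTgcccggacgagag
IGF2BP1 and IGF2BP3 shared 27 of the 30 bases, IGF2BP1 and IGF2BP2 shared 26, and IGF2BP2 and IGF2BP3 shared 25. Over the 175 nt of coding sequence before the end of exon 1, identity was lower, between 69.1% and 70.9%. The listed peak lay 27 nt from this site in IGF2BP3, against 308 nt in IGF2BP1 and 3318 nt in IGF2BP2. So 3 like sequences, in genes of nearly equal expression quantile, had a listed peak beside 1 of them. Whether the unlisted sites are unmarked cannot be told from a list of called peaks.

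HNRNPA2B1, whose gene makes the A2 and B1 proteins by alternative splicing, lies on chromosome 7 at 26196081 to 26206938 on the minus strand. Its peak was at nt 113 in exon 1 (222 nt), in the transcript start segment, 104 nt before the start codon. The score, 4.02, was the highest of the 4. No RRACH lay within 100 nt, the nearest being AAACU at 113 nt, and the transcript of 3539 nt holds no GGACU. All of its 50 RRACH sites were in coding sequence (13) or 3′ UTR (37), none in the 5′ UTR. These counts hold for the GENCODE transcript used, whose coding sequence is 783 nt. It was chosen by its span and exon 1, so which splice form the table lists was not settled.

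Transcript start peaks as a class were no closer to RRACH than other positions of that segment. In matched transcripts 65.0% of 123 start peaks (56.3% to 72.9%) had an RRACH within 50 nt, against 64.7% of all positions in that segment. For all 1246 peaks the share was 90.0% (88.3% to 91.6%), against 75.4% of positions. Of the start peaks 15, or 12.2%, were at least 113 nt from any RRACH, against 2.33% of all peaks. The start peak of IGF2BP1, with a site at 12 nt, was nearer than most, since 23.6% of start peaks had one as near and the median was 33 nt.

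Start peaks were common at the expression of HNRNPA2B1. Of 623 coding transcripts within 0.02 of its quantile, 381 had a peak, 61.2% (57.3% to 64.9%), and 30.7% of the 623 had one in the start segment. With length matched as well, 187 of 246 had a peak (76.0%) and 82 had a start peak (33.3%). Its neighbour CBX3, a heterochromatin protein gene, starts 685 nt away on the opposite strand and had no listed peak.

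HNRNPC, on chromosome 14 at 20747136 to 20807478 on the minus strand, had no listed peak despite a quantile of 0.924. Of 1016 coding transcripts within 0.02 of it, 301 also had none, so a peak was listed for 70.4%. Of 553 of like expression and length, 114 had none, 20.6%. A coding transcript without a listed peak at this level was therefore in a minority but not rare. The transcript had 46 RRACH sites over 3285 nt, of which 7 were in the 5′ UTR, 15 in the coding sequence and 24 in the 3′ UTR. It also had 3 GGACU sites, and 2 of them lie close together in the coding sequence. They are shown in capitals because sites of this kind had no listed peak here (T for U).
HNRNPC, nt 547 to 576: cttGGACTatgactttcaacgGGACTatta
The sequence of HNRNPC is shared in part with other genes. Of its 30-nt words, 21.3% also occur in other annotated genes, 14 in number, 9 of them pseudogenes named after it. The sources used here do not say how the authors treated reads that fit several places. The part of shared sequence in the missing peak was not tested.

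Shared sequence differed among the other readers too. IGF2BP1 and HNRNPA2B1 shared no 30-nt word with another annotated gene. IGF2BP2 shared 22.5% of its words, none of them at its peak. IGF2BP3 shared 17.5%, and 4 of the 72 words at its peak (5.56%) also occur in a processed pseudogene.

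**Figure D2:**
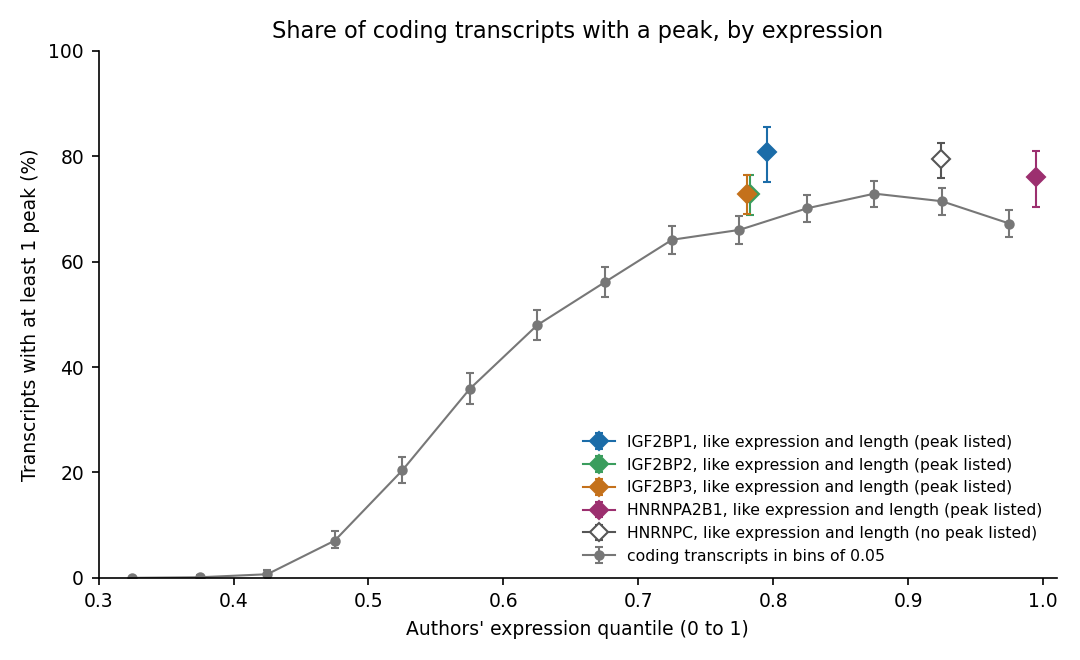
The percentage of coding transcripts with at least 1 peak (vertical axis) is plotted against the authors' expression quantile (horizontal axis) in bins of 0.05, as grey points with 95% Wilson intervals. Diamonds give the share among coding transcripts of like expression and length for each reader, filled where the reader had a listed peak and open for HNRNPC. The 5 diamonds lie between 72.8% and 80.8%.

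In the GENCODE transcripts used, RRACH density set only IGF2BP2 apart from the middle range of matched transcripts. RefSeq ends IGF2BP1 495 nt and IGF2BP2 609 nt further on, and sites there were not counted. RRACH density was 1.28 per 100 nt in IGF2BP1, 1.83 in IGF2BP2, 1.51 in IGF2BP3, 1.41 in HNRNPA2B1 and 1.40 in HNRNPC. The median was 1.36 in matched transcripts with peaks and 1.35 in 1065 coding ones without. IGF2BP2 alone lay outside the range of 0.99 to 1.75 that is left when the 10% of transcripts with the lowest and the 10% with the highest density are set aside. A GGACU within 50 nt was found for 1 reader peak of 4, that of IGF2BP3, and for 30.8% of all matched peaks, against 10.1% of positions.

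The scores of the reader peaks lay on both sides of the table's median. Scores ran between 2.00 and 7.91 with a median of 3.15, and the median of the highest score per transcript was 3.55. HNRNPA2B1 (4.02) and IGF2BP2 (3.94) stood above that median, higher than 64.7% and 62.6% of the transcripts with a peak. IGF2BP1 (3.04) and IGF2BP3 (2.90) stood below it, higher than 32.6% and 27.1%. Scores depend on the segment, since the median was 2.73 at transcript starts, 3.14 in coding sequence and 3.22 in 3′ UTRs. Set against peaks of its own segment, HNRNPA2B1 was higher than 93.8% of start peaks and IGF2BP1 was higher than 67.5%. IGF2BP2 was higher than 73.1% of 3′ UTR peaks, and IGF2BP3 was higher than 40.3% of coding peaks. HNRNPA2B1 was thus the reader that stood highest in its class.

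**Figure D3:**
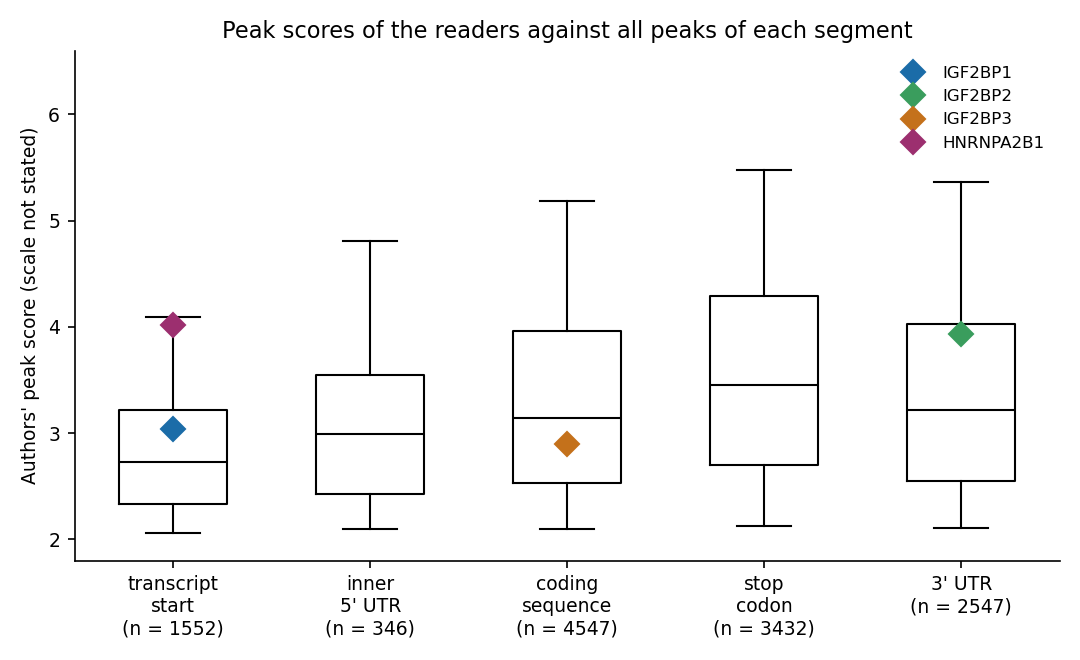
Boxes give the authors' peak score (vertical axis, no stated unit) for all peaks of each transcript segment (horizontal axis, number of peaks below), with the median, the quartiles, and whiskers at the 5th and 95th percentiles. Diamonds are the 4 reader peaks. HNRNPA2B1 (4.02) lies just under the upper whisker of start peaks, while IGF2BP3 (2.90) lies below the median of coding peaks.

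Reader and hnRNP genes nearest in expression had peaks in the same segment in some cases and in another, or none, in others. The 3 nearest to each IGF2BP gene, measured by the difference in quantile among 15 other readers and 25 hnRNP genes, were the same. They were YTHDF3, a cytoplasmic YTH-domain reader (0.794, highest score 7.27, coding), YTHDC1, the nuclear YTH reader (0.792, 2.78, coding), and HNRNPA3 (0.789, 3.55, 3′ UTR). Nearest to HNRNPA2B1 were HNRNPAB (0.995, 3.38, start), PCBP1, a poly(C) binding protein (0.994, 3.84, start), and HNRNPD (0.994, no peak). Nearest to HNRNPC were RBMX, an hnRNP also known as a reader (0.927, no peak), HNRNPH2 (0.928, 5.42, coding) and FXR2, a relative of the fragile X protein (0.939, 2.09, 5′ UTR). Around the IGF2BP genes, then, all had a peak, with highest scores between 2.78 and 7.27. The neighbours of HNRNPA2B1 ranged between no peak and 3.84, and those of HNRNPC between no peak and 5.42.

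Among the 25 other hnRNP genes, 16 had a peak (64.0%), at a median quantile of 0.980 and a median highest score of 3.46. Of coding transcripts with a quantile above 0.95, 67.2% had a peak. A start peak was listed for 9 of the 25 genes, near the 30.7% of coding transcripts within 0.02 of the quantile of HNRNPA2B1. The highest scores were those of HNRNPH2, HNRNPF (4.27), HNRNPR (4.08) and HNRNPM (4.08), and PTBP1, the polypyrimidine tract binding protein, had the most peaks, 3. Like HNRNPC, its relatives RALY, RALYL and HNRNPCL1 had none, the last 2 at the lowest quantile, nor did HNRNPA1, HNRNPA1L2, HNRNPD, HNRNPH1, HNRNPL and PCBP2. Among 15 other readers, 10 had a peak (66.7%), beside 72.9% of coding transcripts at quantiles of 0.85 to 0.90. Their median quantile was 0.891 and their median highest score was 3.42, and 1 of their 19 peaks was at a start. After YTHDF3, the highest were EIF3A (5.76), a translation factor, PRRC2A (4.63), listed as BAT2, and YTHDF2 (4.18). YTHDF1 and PRRC2A had the most, 4 each. The readers YTHDC2, FMR1, FXR1, RBMX and LRPPRC had none.

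**Figure D4:**
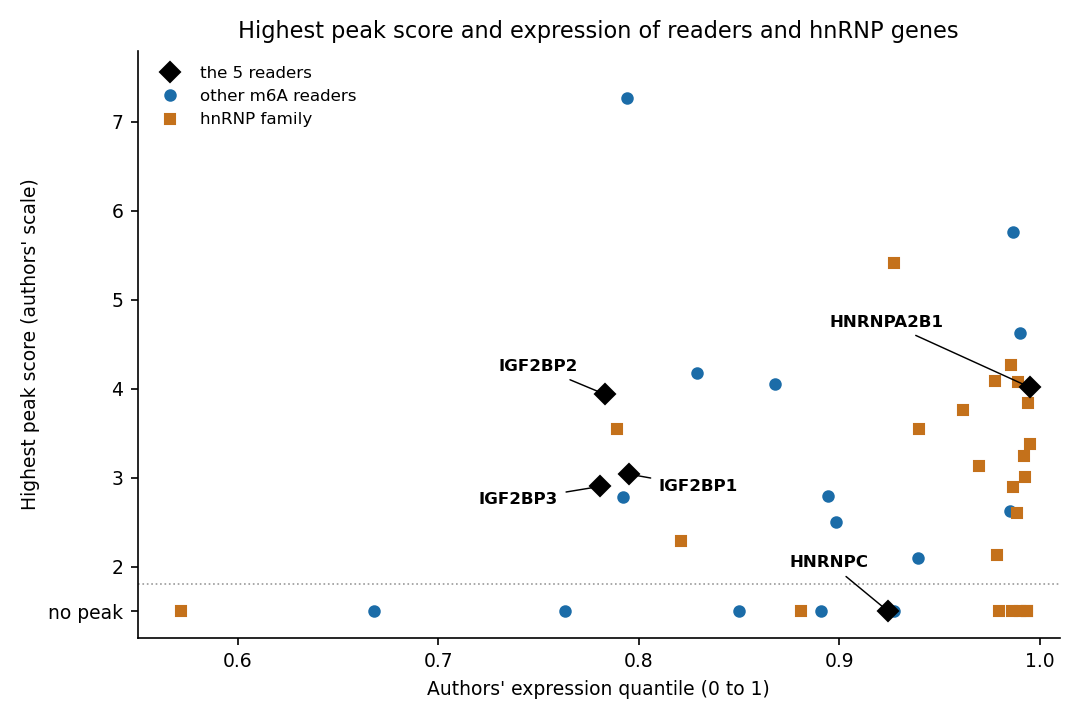
The highest peak score of each gene (vertical axis, authors' scale, with genes without a peak below the dotted line) is plotted against its expression quantile (horizontal axis). Black diamonds are the 5 readers, blue circles the 15 other readers and brown squares the 25 hnRNP genes, of which the 2 at the lowest quantile (0.314) lie outside the axis. The IGF2BP genes lie together between 0.780 and 0.795 with scores between 2.90 and 3.94, while HNRNPC lies among the genes without a peak.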

How the data were processed

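Per the labels' protocols, poly(A) RNA was broken chemically to about 100 nt, precipitated with an anti-m6A antibody, and made into libraries with random primers. No source used here names the aligner, peak caller, annotation or build. The deposited table covers all 7 libraries. Per the file headers, expression is a quantile, a fraction between 0 and 1. The authors' count of peaks and the authors' score per peak are given per transcript, and the scale of the score is not stated.

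Members and gene lists were chosen with earlier results of these data known. All members and each of their peaks are named, with the 3 nearest reader or hnRNP genes by quantile. From each list the 4 highest scores, the gene with the most peaks and the genes without a peak are named, apart from a few not reported here. Others, such as H19, were chosen after their values were seen.

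Transcripts were matched to GENCODE release 29 by symbol, chromosome, strand, span and the number and length of each peak's exon. For the background, 655 transcripts with 1246 peaks matched exactly. HNRNPA2B1 matched exactly in span and in exon 1. IGF2BP1 was 495 nt longer in the table, and IGF2BP2, IGF2BP3 and HNRNPC were 17, 91 and 16 nt shorter. IGF2BP1 was not shifted, since its difference was taken to lie at the 3′ end. For the shorter transcripts the difference was taken to lie at the 5′ end, and GENCODE positions were shifted by it. The listed length of exon 1 bears this out for IGF2BP3, and no exon 1 peak checks it for IGF2BP2 or HNRNPC, whose match rests on its span. RRACH distances run to the A before the C, on the RNA strand only, and positions within 50 nt of either end were left out of the background. Shares have 95% Wilson intervals, which cover counting error only. No statistical test was made, and the motif search and the intervals were tested on simulated data. Python 3.11.15, numpy 2.4.6, pandas 2.3.3, scipy 1.17.1 and matplotlib 3.10.9 were used. Alternatives were other score thresholds, segments, expression bands, length matching, ranking sets, motifs and windows.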

Additional observations from a re-analysis of the deposited data

How the results depend on the processing

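The count of 4 readers with a peak became 3 with a score of at least 3, and 2 either with scores at or above the table's median (IGF2BP2 and HNRNPA2B1 were left) or without transcript start peaks (IGF2BP2 and IGF2BP3 were left). Matching length beside expression gave 80.8%, 72.8%, 72.8%, 76.0% and 79.4% of transcripts with a peak for IGF2BP1, IGF2BP2, IGF2BP3, HNRNPA2B1 and HNRNPC. For HNRNPA2B1 the share was 56.8% within 0.01 and 67.3% within 0.05 of its quantile; the cause was not tested. The other readers' shares at these bands, and all 5 with noncoding transcripts added, stayed within the interval of the share reported. Percentiles of the highest score depend on what they are ranked in. Among all peaks they were 46.0 for IGF2BP1, 74.4 for IGF2BP2, 40.1 for IGF2BP3 and 76.2 for HNRNPA2B1. Among peaks of the same segment they were 67.5, 73.1, 40.3 and 93.8 in that order, and among highest peaks of coding transcripts within 0.05 they were 29.8, 60.8, 24.8 and 76.3. The count of 3 peaks with RRACH within 50 nt also came out within 25 nt, within 100 nt, for DRACH (RRACH with U allowed in the first place) and, in an alternative chosen after seeing the data, without the IGF2BP2 shift; with GGACU it was 1. Matching spans within 10 nt gave 90.2% of peaks with RRACH. Of 41 alternative values, 19 kept their reading.

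No paired analysis was possible because no column belongs to a single library and, for the same reason, leaving out a library was not run. A peak list shows no level at sites that were not called, and weak peaks under a score of 2.00 are not in it. Fragments of about 100 nt limit the resolution of positions.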

Other observations

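Of 14 RNAs that IGF2BP proteins are known to bind, 9 had a peak (64.3%), beside 70.1% of coding transcripts at quantiles of 0.80 to 0.85. Their median quantile was 0.849 and their median highest score was 3.68. A peak around the stop codon was listed for 6 of the 9, beside 47.4% of the 6990 coding transcripts with a peak. The highest scores were those of MYC, a growth-promoting transcription factor (6.76), BTRC, a ubiquitin ligase subunit (5.14), MKI67, a proliferation marker with the most peaks, 6 (4.06), and MAPK4, a kinase (3.71). No peak was listed for IGF2, the growth factor that gave the family its name, at a quantile of 0.482, nor for HMGA2, a chromatin protein, and LIN28B, an RNA-binding protein at the lowest quantile. H19, the noncoding neighbour of IGF2, stood near the top of the table at 0.99992. It is among the 9, with 1 peak (2.56) in a segment that the authors list as 3′ UTR.

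Of 8 proteins known to act with IGF2BP proteins, 6 had a peak (75.0%), beside 71.5% of coding transcripts at quantiles of 0.90 to 0.95. Their median quantile was 0.916 and their median highest score was 2.89. The highest were STAU1 (4.65), a double-stranded RNA binding protein that also had the most peaks, 2, ELAVL1 (4.05), an mRNA-stabilising protein, HNRNPU (3.01) and DHX9 (2.77), an RNA helicase. PABPC1, the cytoplasmic poly(A) binding protein, and YBX1, a cold-shock domain protein, had none. Among 10 genes for the enzymes and cofactors that write or erase m6A, 8 had a peak (80.0%). Their median quantile was 0.792 and their median highest score was 4.04. Of coding transcripts at quantiles of 0.75 to 0.80, 66.0% had a peak. These lists are short, and no count was tested against its share. WTAP (5.25), METT10D (5.24), ZC3H13 (4.77) and RBM15B (4.35, with 4 peaks the most) were highest, and the erasers FTO and ALKBH5 had none. METTL14 was not analysed here.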
